A study of Mus musculus with 30 samples.

Results

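Ccl5 encodes the chemokine CCL5, also called RANTES. It was followed as 1 gene of the 49315 listed in the files, and it was one of the 21138 genes that held at least 10 reads over all 24 libraries. It was chosen by its measured level in B16F10 cells, which was higher with STING agonist than with either interferon. The B16F10 values below are therefore given as descriptions, with standard errors and intervals but no p-values. Its levels in the second cell line were not part of that choice and were tested.

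The study treated 2 mouse tumor cell lines in culture and sequenced bulk RNA, to see how tumor cells themselves respond to a STING agonist. B16F10 is a melanoma line. 6694c2 is a pancreatic ductal adenocarcinoma line derived from female mice whose engineered alleles, among them 1 floxed p53 allele and a floxed YFP reporter, were recombined by Pdx-cre, which is active in the pancreatic lineage. The labels give C57BL/6 as the genotype of both. Each line was cultured for 24 h with STING agonist (225 µg/mL), with 1000 U/mL of IFNβ, with 100 ng/mL of IFNγ or with vehicle, with 3 libraries per group. What the vehicle was is not given in the sources used here. Nothing says that the 3 libraries of a group came from separate cultures, so the p-values measure the spread between these libraries, which may be technical.

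CCL5 is a small secreted protein of the CC family. It draws T cells, natural killer cells, monocytes and dendritic cells through receptors that include CCR1 and CCR3. STING is a membrane protein of the endoplasmic reticulum that senses the cyclic dinucleotide made by cGAS. Once active, it engages the kinase TBK1, the transcription factor IRF3 and NF-κB, and the interferon that follows acts through factors that include STAT2 and IRF9. The Ccl5 promoter is a textbook target of interferon regulatory factors and of NF-κB.

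The gene (ENSMUSG00000035042) lies on the minus strand of chromosome 11, at chr11:83525778-83530518 of GRCm38, and has 3 coding exons. Exon 1 spans 83530386 to 83530518, exon 2 spans 83529156 to 83529267 and exon 3 spans 83525778 to 83526064. The coding sequence of 276 bases is shown because it carries the family's defining feature. Reads were counted over 960 bases from 2 transcripts, of which it is a part. The capitals mark codons 33 and 34, the adjacent cysteine codons after which CC chemokines are named.
Ccl5 coding sequence, 5′ to 3′: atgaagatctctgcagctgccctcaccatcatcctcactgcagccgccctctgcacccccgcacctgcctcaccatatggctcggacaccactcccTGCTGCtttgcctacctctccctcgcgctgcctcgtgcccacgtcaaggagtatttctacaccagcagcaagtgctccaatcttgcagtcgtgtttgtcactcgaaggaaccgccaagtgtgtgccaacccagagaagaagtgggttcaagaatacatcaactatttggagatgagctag
It holds 91 codons before the stop, and 5 of them encode cysteine. None of the other genes in the GENCODE M21 transcripts shares a 20-base stretch with this coding transcript on either strand.

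Libraries held between 15543131 and 32266795 reads on genes. The melanocyte genes were abundant in B16F10: Dct, a pigment enzyme, was at 5656 to 8127 CPM (read counts scaled to a common library size). In 6694c2, keratin genes were abundant, with Krt8 at 5790 to 7374 CPM, but the epithelial markers Epcam, Cldn4 and Cldn7 were low, with Epcam at no more than 4.53 CPM. The libraries of each line also held reads on genes specific to the other line. Such genes were defined by under 2% of their level in the other line, so a low share follows from that definition. Where these reads came from was not tested. For 138 genes specific to 6694c2, the median share of the 6694c2 level was 0.904% to 1.16% in the B16F10 libraries with STING agonist. It was 0.164% to 0.234% with vehicle, 0.171% to 0.402% with IFNγ and 0.213% to 0.579% with IFNβ. Thus the B16F10 libraries with STING agonist stood apart from the other B16F10 libraries in this measure, and the Ccl5 values are given beside it below.

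Ccl5 was transcribed in B16F10 cells given vehicle, rose slightly with IFNβ, more with IFNγ and most with STING agonist. With vehicle, the 3 libraries held 227, 260 and 252 Ccl5 reads, or 11.6, 11.2 and 10.6 CPM after TMM scaling within the line. With IFNβ the values were 15.8, 15.7 and 16.5 CPM, from 362, 380 and 379 reads. With IFNγ they were 23.8, 25.2 and 22.8 CPM, from 610, 502 and 483 reads. With STING agonist they were 64.6, 71.8 and 72.1 CPM, from 1007, 1563 and 1272 reads. The groups fell in the order vehicle, IFNβ, IFNγ and STING agonist, and no library of one group overlapped with a library of another. The lowest library with STING agonist was 2.56 times the highest with IFNγ.

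**Figure D1:**
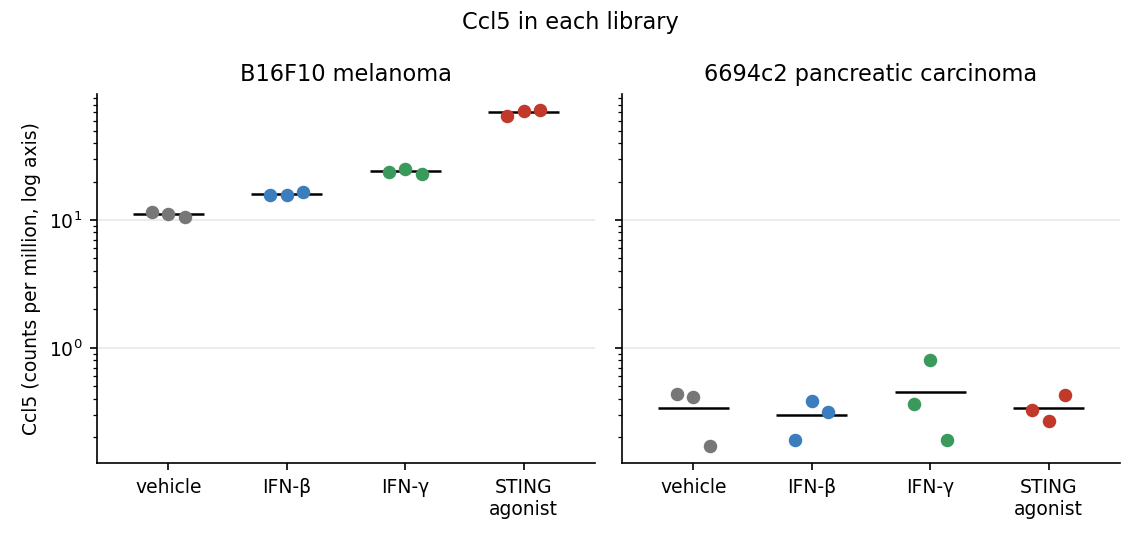
Ccl5 in each of the 24 libraries, in CPM on a log axis, by treatment in B16F10 (left) and 6694c2 (right). Points are libraries and black lines are means of 3. In B16F10 the libraries with STING agonist lay at 64.6 to 72.1 CPM, above the 22.8 to 25.2 CPM with IFNγ, while no 6694c2 library exceeded 0.798 CPM.

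The group means in B16F10 were 11.1 ± 0.488 CPM with vehicle, 15.995 ± 0.424 CPM with IFNβ, 24.0 ± 1.22 CPM with IFNγ and 69.5 ± 4.26 CPM with STING agonist (SD, n = 3). Against vehicle, the STING agonist value was 6.26-fold higher, a log2 fold change of 2.65 ± 0.09 (SE; 95% interval 2.47 to 2.82). IFNγ gave 1.11 ± 0.09 (0.92 to 1.29) and IFNβ gave 0.52 ± 0.10 (0.34 to 0.71). These 3 comparisons share their vehicle libraries.

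Compared directly, Ccl5 with STING agonist was 4.35-fold higher than with IFNβ, a log2 difference of 2.12 ± 0.08 (95% interval 1.95 to 2.29). It was 2.90-fold higher than with IFNγ, a log2 difference of 1.54 ± 0.08 (1.38 to 1.70). IFNβ in turn lay below IFNγ by a log2 difference of -0.58 ± 0.09 (-0.76 to -0.41). All neighbors in the order were thus separated by more than their intervals. As background, 8.76% of all tested genes were called higher with STING agonist than with IFNβ at an adjusted p under 0.05, and 9.05% were called higher than with IFNγ. The doses of the agents are in different units and only 1 time was sampled, so the order holds for these doses at 24 h.

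The share of 6694c2-specific transcripts moved with STING agonist in B16F10, so its size is given beside the Ccl5 values. Taking each library's share times the highest Ccl5 group level in 6694c2 gives no more than 0.00523 CPM in any B16F10 library with STING agonist. The difference of mean Ccl5 from vehicle was 58.4 CPM. The part of the share in that difference was not tested.

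The same contrast also called many genes with a high level in 6694c2. In B16F10, 114 genes were called higher with STING agonist than with each of vehicle, IFNβ and IFNγ by edgeR's quasi-likelihood test, and 72 of them were over 2-fold higher in all 3 comparisons. Singly, 0.814% of all genes were called and over 2-fold higher than with vehicle, 0.695% than with IFNβ and 1.21% than with IFNγ. Of these 72, 71 were more than 10 times higher in 6694c2 than in B16F10 with STING agonist. Ccl5 was the other one, and its mean level over the 6694c2 groups was 0.507% of its B16F10 level with STING agonist. Without the first B16F10 library with STING agonist, 72 genes were called in all 3 comparisons in place of 114. That Ccl5 is among these genes follows from how it was chosen and is given as a description.

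**Figure D2:**
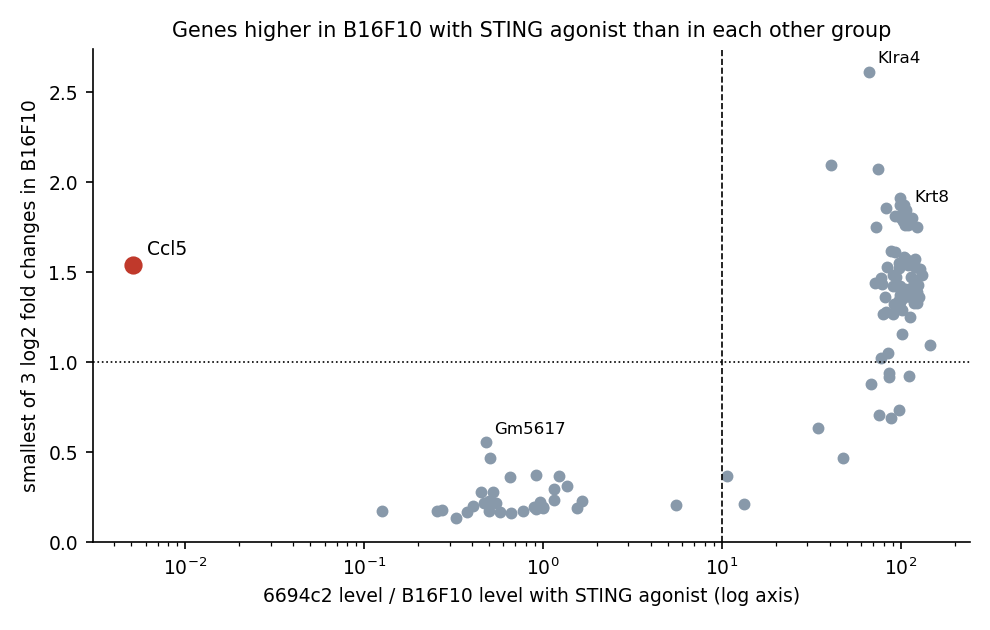
The 114 genes called higher in B16F10 with STING agonist than in each other B16F10 group, by the ratio of their mean 6694c2 level to their B16F10 level with STING agonist (log axis) and by the smallest of their 3 log2 fold changes. The dashed line marks a ratio of 10 and the dotted line a 2-fold change. Ccl5 (red) lay at a ratio of 0.00507 and a log2 fold change of 1.54, while 71 genes over the dotted line lay to the right of the dashed one.

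The 10 genes with the largest smallest fold change were Klra4, Gda, Sprr1a, Krt18, Prl2c2, Tgfa, Pparg, Anxa8, Krt8 and Itga3. Each was between 40.6 and 106 times higher in 6694c2 than in B16F10 with STING agonist. Krt8, a keratin of simple epithelia, had a mean of 7.93 CPM with vehicle and 59.1 CPM with STING agonist in B16F10, against 7010 CPM in 6694c2 with vehicle. Over the 82 genes of the 114 that were more than 10 times higher in 6694c2, the gain over vehicle in B16F10 had a median of 0.823% of the 6694c2 level (quartiles 0.716% to 0.901%). The other 31 genes had smallest log2 fold changes of 0.14 to 0.56. Among them, the largest values belonged to Gm5617, 2810001G20Rik and Rpl38-ps2, which were picked out after their values were seen. How far the 6694c2 share accounts for the genes that are high in that line was not tested.

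Among all 408 genes called higher in B16F10 with STING agonist than with vehicle (1.93% of those tested), Ccl5 was number 44 by fold change. Of the 43 above it, 41 were more than 10 times higher in 6694c2, and the other 2 had under 1 CPM. Since Ccl5 was chosen by its level in this group, the rank is a description. Ifit1, an interferon-induced RNA-binding protein named after its values were seen, was also among the 408. Its log2 fold change was 2.17 ± 0.06 (adjusted p = 1.77e-131, edgeR).

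The interferon-inducible genes Cxcl10, Ifit1, Stat2 and Irf1 were ordered differently from Ccl5 in B16F10. Cxcl10 encodes a CXCR3 ligand that, like CCL5, attracts T cells. Its B16F10 libraries held 19.8, 24.1 and 23.9 CPM with vehicle and 57.1, 49.7 and 48.9 CPM with STING agonist. With IFNβ they held 665, 616 and 618 CPM, and with IFNγ 964, 835 and 984 CPM. Cxcl10 thus rose with STING agonist, by 1.19 ± 0.07 on the log2 scale (edgeR, adjusted p = 8.88e-51), but the interferon groups lay far above. STING agonist against IFNβ gave -3.61 ± 0.06 for Cxcl10 (adjusted p = 3.33e-198, edgeR) and 2.12 ± 0.08 for Ccl5.

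**Figure D3:**
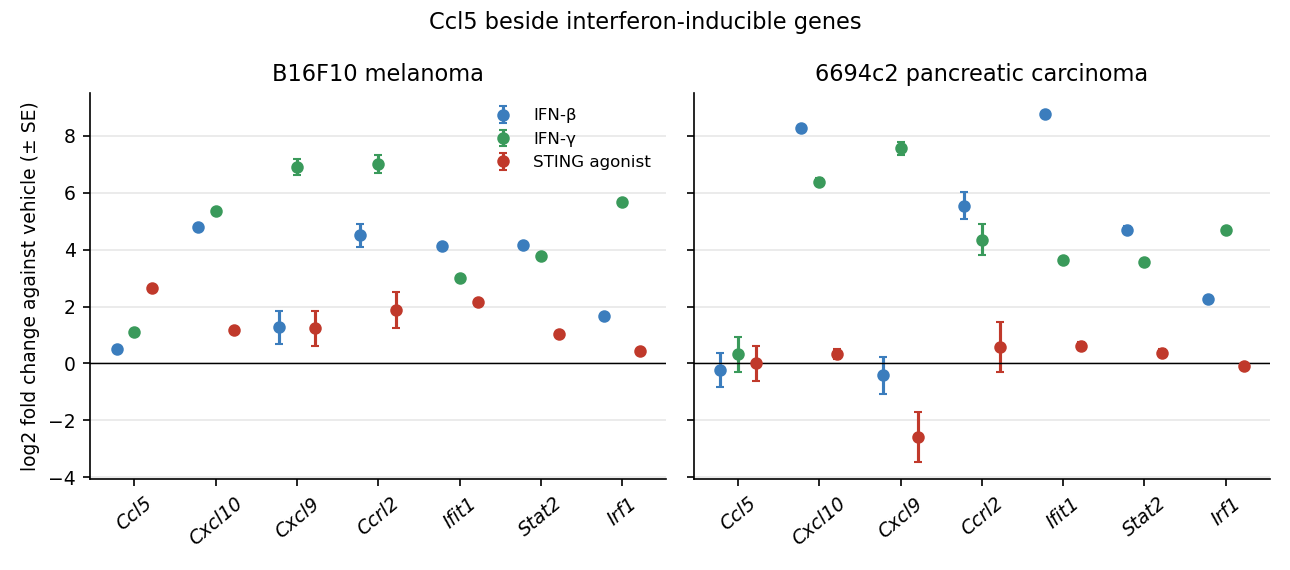
Log2 fold changes against vehicle (± SE from the edgeR fit over the 12 libraries of a line) for Ccl5 and 6 interferon-inducible genes in B16F10 (left) and 6694c2 (right). In B16F10, Ccl5 is the one gene shown whose STING agonist point (2.65) lies above those for IFNγ (1.11) and IFNβ (0.52). In 6694c2 its 3 points lie between -0.22 and 0.32.

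Ifit1 went the same way as Cxcl10, with means of 56.8 CPM with vehicle, 256 CPM with STING agonist, 458 CPM with IFNγ and 997 CPM with IFNβ. The transcription factor genes Stat2 and Irf1 also had their highest levels with an interferon. Stat2 had 8.74 CPM with vehicle, 18.2 CPM with STING agonist, 157 CPM with IFNβ and 121 CPM with IFNγ. Irf1, an interferon regulatory factor, had 13.2, 18.04, 42.4 and 682 CPM in the same order of groups. All of these genes were called lower with STING agonist than with IFNβ and with IFNγ. Ccl5 was the reverse in both comparisons.

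The list of 20 genes from STING to the interferon response held 18 that were tested. With STING agonist in B16F10, 4 of the 18 rose and 0 fell, against 1.93% of all genes called higher. The list's median log2 fold change was 0.15, and that over all genes was 0.00. Those that rose included Stat2 (1.04), Irf1 (0.44) and Irf9 (0.39). Irf7, the interferon regulatory factor that amplifies type I interferon, had a mean of 0.983 CPM with vehicle and 1.17 CPM with STING agonist. Against IFNβ, 0 of the 18 were called higher with STING agonist and 8 were called lower, where 19.8% of all genes were called in either direction. Against IFNγ, 7 were called lower and 1 higher, where 9.05% of all genes were called higher. With 1 library left out, 1961 to 2567 of all 21138 genes were called lower in that comparison. The 1 called higher was Enpp1, which encodes an enzyme that degrades the cyclic dinucleotide. Enpp1 had 0.296 CPM with IFNγ and 0.867 CPM with STING agonist in B16F10, against 73.2 CPM in 6694c2 with vehicle. With IFNβ itself 10 of the 18 rose over vehicle, against 12.7% of all genes called higher. With IFNγ 9 rose and 2 fell, against 22.8% of all genes called in either direction.

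NF-κB is the other textbook route to Ccl5. Of 24 tested NF-κB subunits and early targets, 1 rose and 1 fell with STING agonist in B16F10, against 3.46% of all genes called in either direction, and the list's median log2 fold change was -0.06. The gene that rose was Vcam1, an adhesion molecule, with 0.605 CPM with vehicle and 2.29 CPM with STING agonist. Vcam1 stood at 218 CPM in 6694c2 with vehicle, so it belonged to the genes that are high in that line. The gene that fell was Nfkb1, with a log2 value of -0.23 against vehicle (edgeR, adjusted p = 0.03). This call was lost in 6 of 19 alternatives.

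Of the other 19 CC chemokine genes, 8 had under 10 reads in all and 11 were tested. Of these 11, 0 were called in either direction with STING agonist against vehicle, against 3.46% of all genes. Ccl25, a thymic and intestinal chemokine, had group means of 10.2 to 11.7 CPM in B16F10, and Ccl27a, a skin chemokine, had 2.03 to 3.42 CPM. No other CC gene but Ccl5 exceeded a group mean of 1.02 CPM there. Ccl2, the monocyte chemokine, was at 0.207 CPM with vehicle and 0.219 CPM with STING agonist.

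Of the 15 tested chemokine genes of the other families, 1 rose with STING agonist in B16F10, against 1.93% of all genes called higher, and that was Cxcl10. Per kilobase of counted gene length, Ccl5 was at 72.4 CPM per kb with STING agonist and Cxcl10 at 23.1 CPM per kb. With vehicle the levels were 11.6 and 10.0 CPM per kb. With IFNβ and IFNγ, Cxcl10 stood at 281 and 412 CPM per kb, against 16.7 and 24.96 CPM per kb for Ccl5. On the scale per length, Ccl5 was therefore the higher of the pair with vehicle and with STING agonist, and Cxcl10 with each interferon.

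Ccl5 was almost absent from 6694c2 cells, and no change there passed the test. With vehicle the libraries held 8, 8 and 3 reads, or 0.431, 0.412 and 0.169 CPM. With STING agonist they held 9, 8 and 13 reads, or 0.327, 0.268 and 0.424 CPM. IFNγ gave 7, 14 and 6 reads (0.364, 0.798 and 0.191 CPM) and IFNβ 6, 9 and 9 reads (0.189, 0.387 and 0.314 CPM). All 4 groups overlapped. 

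STING agonist against vehicle gave a log2 fold change of 0.00 ± 0.60 in 6694c2 (95% interval -1.21 to 1.22, adjusted p = 1.0, edgeR). The interval corresponds to 0.431 to 2.32-fold. IFNγ gave 0.32 ± 0.60 (-0.90 to 1.53, adjusted p = 0.851, edgeR) and IFNβ gave -0.22 ± 0.61 (-1.44 to 1.003, adjusted p = 0.912, edgeR). IFNβ against IFNγ gave -0.54 ± 0.58 (-1.71 to 0.63, adjusted p = 0.660, edgeR). With so few reads, changes of about 2-fold in either direction were not detectable in this line. In these 4 comparisons the shares of all genes called were 0.36%, 13.5%, 18.2% and 13.9%.

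Set side by side, the log2 fold change with STING agonist was 2.66 ± 0.50 larger in B16F10 than in 6694c2 in the fit of all 24 libraries (95% interval 1.65 to 3.67). The difference for IFNγ was 0.90 ± 0.47 (-0.05 to 1.86) and that for IFNβ was 0.80 ± 0.48 (-0.17 to 1.76). Both interferon intervals include 0. These differences contain the B16F10 values for which Ccl5 was chosen and are given without a test.

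The lines also differed with vehicle at 24 h. Ccl5 with vehicle was lower in 6694c2 than in B16F10 by a log2 difference of -4.79 ± 0.23 (95% interval -5.25 to -4.33). This difference also contains B16F10 values of the chosen gene and is given without a test. Between these lines 58.0% of all tested genes were called. Scaled to the total reads on genes, the lowest B16F10 library of any treatment had 13.1 times the Ccl5 level of the highest 6694c2 library.

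The few Ccl5 reads in 6694c2 libraries are set here beside the reads on B16F10-specific genes in the same libraries. For 106 genes specific to B16F10, the median share of the B16F10 level was 0.516% to 0.578% in 6694c2 with vehicle, 0.275% to 0.859% with IFNγ, 0.221% to 0.324% with IFNβ and 0.201% to 0.277% with STING agonist. The share thus moved with treatment. In 6694c2, 6 of 9 melanocyte markers were called lower with STING agonist than with vehicle, against 0.36% of all genes called in either direction. The list's median log2 fold change was -2.18, and that over all genes was 0.00. The part of the share in the comparison of Ccl5 between STING agonist and vehicle in 6694c2 was not tested. Ccl5 in those libraries stood at 0.244% to 1.14% of its B16F10 level with STING agonist. The second IFNγ library had the highest value of both, with 0.859% and 1.14%. The third vehicle library had the second highest share, 0.578%, and the lowest Ccl5, 0.244%. The B16F10 group with the highest Ccl5 was used for this ratio, and the source of the share is not known. The pooled counts of 6694c2 with vehicle gave 0.347 CPM (exact Poisson 95% interval 0.209 to 0.542, counting error only) from 19 reads. The part of B16F10 transcripts in the Ccl5 reads of 6694c2 was not tested.

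**Figure D4:**
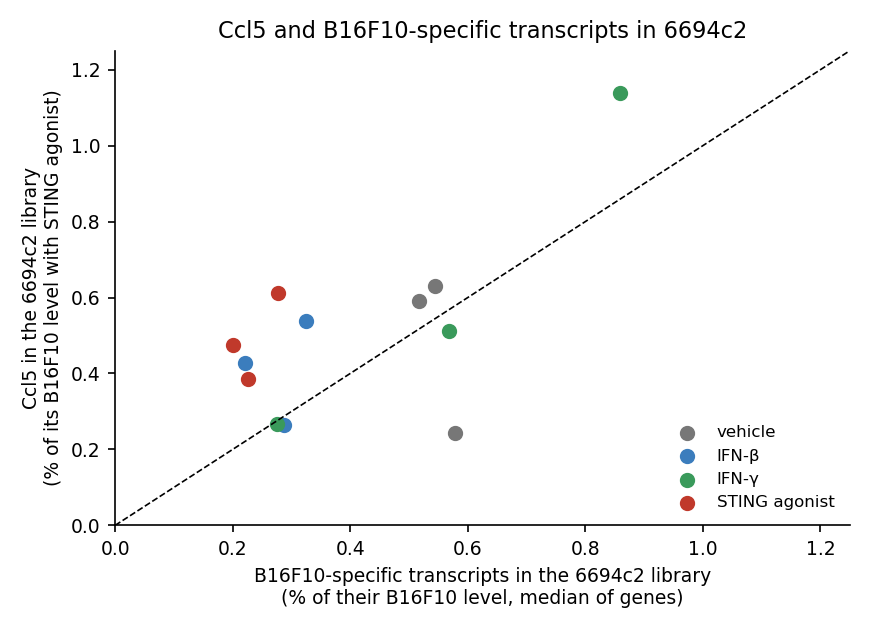
Ccl5 in each 6694c2 library as a percentage of its B16F10 level with STING agonist (vertical axis), against the median share of 106 B16F10-specific transcripts in the same library (horizontal axis, percentage of their B16F10 level). The dashed line marks equal values. The libraries lie on both sides of it, with the second IFNγ library highest on both axes.

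Other chemokine genes rose with the interferons in 6694c2. Cxcl10 had means of 2.14 CPM with vehicle, 181 CPM with IFNγ and 668 CPM with IFNβ. Ccl2 had 1.71, 9.66 and 5.23 CPM in the same order, with log2 fold changes of 2.51 for IFNγ (adjusted p = 9.56e-15, edgeR) and 1.62 for IFNβ (adjusted p = 8.83e-09, edgeR). Ccl8, a further monocyte chemokine, was at 0 reads with vehicle and reached 0.716 CPM with IFNγ and 0.510 CPM with IFNβ. Of the 11 other CC genes tested, 3 rose with IFNγ and 3 with IFNβ in 6694c2, against 7.89% and 10.4% of all genes. They were Ccl2, Ccl7 and Ccl8 in both, and the call of Ccl7 with IFNγ was lost in 10 of 17 alternatives. With STING agonist, 0 of the 26 other tested chemokine genes were called there, against 0.36% of all genes.

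Of the 18 tested pathway genes, 4 were higher and 11 lower in 6694c2 than in B16F10 with vehicle. Between the lines 58.0% of all genes were called. The STING gene itself, listed as Tmem173, was among the lower ones. It had 29.8, 31.5 and 31.4 CPM in B16F10 with vehicle and 1.29, 2.21 and 1.81 CPM in 6694c2. The log2 difference was -3.90 ± 0.13 (adjusted p = 1.36e-26, edgeR). Cgas, the DNA sensor upstream of it, was lower in 6694c2 by a log2 difference of -0.93 ± 0.11 (adjusted p = 5.42e-10, edgeR). Tmem173 did not pass the test with STING agonist in B16F10, where the log2 fold change was 0.07 ± 0.08 (95% interval -0.08 to 0.23). With IFNγ it rose by 0.88 ± 0.08 on the log2 scale in B16F10 and by 1.86 ± 0.20 in 6694c2. In 6694c2 with STING agonist, 1 of the 18 pathway genes was called, against 0.36% of all genes, and that was Irf7, with 0.878 CPM with vehicle and 2.73 CPM with STING agonist.

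These receptors for CCL5 were close to undetected in both lines. Over all 24 libraries, Ccr1 held 13 reads and Ccr3 1 read. The decoy receptors Ackr1 and Ackr2 held 0 and 1 reads. Ccrl2, an atypical receptor that binds chemerin, was an interferon-responsive gene, with B16F10 means of 0.0886 CPM with vehicle, 2.19 CPM with IFNβ and 12.5 CPM with IFNγ. With STING agonist it had 0.356 CPM and missed the threshold (adjusted p = 0.0735, edgeR). The proteoglycan genes Cd44, Sdc1 and Sdc4, whose products can hold CCL5 at the cell surface, were at 65.2 to 508 CPM of reads on genes in all libraries, and in B16F10 with STING agonist Cd44 fell by 0.18 and Sdc1 fell by 0.22 on the log2 scale, calls that were lost in 5 and 4 of 19 alternatives.

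Ccl5 is abundant in T cells and natural killer cells, so their markers were checked in these cultures. The defining genes Cd3e, Prf1 and Ncr1 held 1, 1 and 0 reads over the 24 libraries, while Trac held 1194, Lck 279 and Cd2 65. Trac was at 2.701 to 5.79 CPM in 6694c2 and at no more than 0.134 CPM in B16F10. The summed level of 13 T and natural killer cell markers was 0.280 to 0.807 CPM in B16F10 with STING agonist and 0.102 to 0.776 CPM with vehicle. With IFNγ it was 0.919 to 1.48 CPM and with IFNβ 0.721 to 0.982 CPM. Over the 6694c2 groups it ran from 3.58 to 6.53 CPM. In B16F10 the summed level of 12 myeloid markers was 28.9 to 29.3 CPM with STING agonist and 16.7 to 31.2 CPM with vehicle. It was 20.8 to 41.1 CPM with IFNβ and 38.9 to 52.3 CPM with IFNγ. The larger part there came from Cd74, which tumor cells also express. In 6694c2 the sum was 55.3 to 67.6 CPM with STING agonist and 56.0 to 65.2 CPM with vehicle. With IFNβ it was 65.6 to 74.2 CPM and with IFNγ 126 to 136 CPM. Cd14 was at 34.5 to 62.0 CPM of reads on genes in the 6694c2 libraries. Every B16F10 library also held Lyz2 (3.44 to 6.94 CPM of reads on genes), Ptprc (0.568 to 2.05) and Fcer1g (0.219 to 1.35). Tyrobp held 0 reads in each. Of the 11 myeloid markers tested, 0 were called in B16F10 with STING agonist against vehicle, where 3.46% of all genes were. Against IFNβ, 1 was called higher and 0 lower, where 19.8% of all genes were called in either direction. That was Fcer1g (log2 1.35, adjusted p = 0.0166, edgeR). In bulk RNA, fewer cells that express a gene and less RNA per cell cannot be told apart.

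Ccl5 lies in a chemokine cluster, and its neighbors were examined. Of 27 genes that start within 250 kb, 14 had under 10 reads in all, and 13 were tested. With STING agonist against vehicle in B16F10, 0 of the 13 were called in either direction, against 3.46% of all genes. The CC chemokine genes of the cluster were silent or nearly so: Ccl3 held 1 read and Ccl4 held 4 reads over the 24 libraries, and Ccl6 and Ccl9 had at most 0.108 CPM in B16F10 by group mean. Heatr9, which starts 3602 bases past the end of Ccl5 on the same strand, held 24 reads in all. The 5 neighbors with at least 1 CPM had log2 fold changes of -0.08 to 0.39 with STING agonist. They included Taf15, an RNA-binding protein, with 173 CPM with vehicle and 163 CPM with STING agonist, and Ap2b1, an adaptor of clathrin coats, with 234 and 243 CPM.

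**Figure D5:**
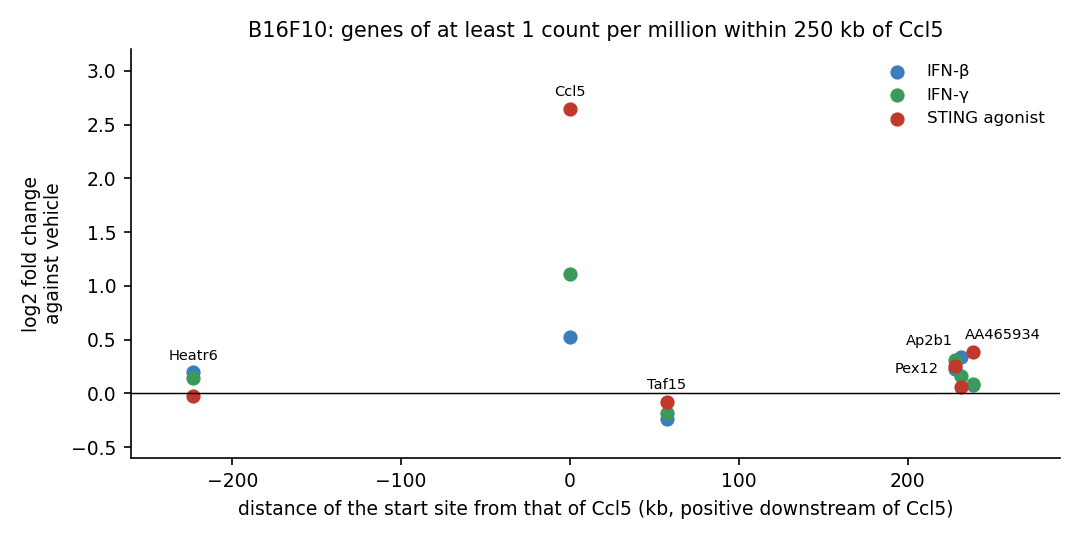
Log2 fold change against vehicle in B16F10 for Ccl5 and its 5 neighbors with at least 1 CPM, by the distance of their start sites from that of Ccl5 in kb. With STING agonist (red) Ccl5 lay at 2.65 and the neighbors between -0.08 and 0.39.

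Genes whose profile was most like that of Ccl5 were sought by Pearson's r of log2 CPM over the 12 libraries of a line. In B16F10 the 10 highest were Vsig1, Tm4sf4, Itga3, Cd24a, Spp1, F2r, Krt18, Fbln2, Smim10l1 and Krt8, with r from 0.857 to 0.907. Of these, 9 were more than 10 times higher in 6694c2 than in B16F10 with STING agonist, and Smim10l1 was the exception, with group means of 64.3 to 78.1 CPM. The 12 points share libraries and group means, so r is a description. In 6694c2 the highest was Crot with 0.905, where Ccl5 had only 3 to 14 reads per library.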

How the data were processed

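The deposited raw counts (reads per gene, 1 table per library) were made by the authors from paired-end reads with cutadapt 1.14, STAR 2.7.9a and Rsubread. The build, strand setting and treatment of multi-mapping reads of the bulk counts are not given in the sources used here. The labels name mm10, and 91.4% of the listed genes match GENCODE M21 (GRCm38) in start, end and strand. Symbols were taken from that annotation. The 6 single-cell samples were not analysed here.

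Genes with at least 10 reads over 24 libraries were kept, as in the study. edgeR 4.0.16 (R 4.3.3; TMM, quasi-likelihood F test) was fitted to the 12 libraries of a line as 4 group means, with Benjamini-Hochberg adjustment over 21138 genes and a threshold of 0.05. Lines were compared in a fit of all 24 libraries. CPM used TMM within a line, or total reads on genes where stated. Transcripts were called specific to a line at a lowest group mean of at least 50 CPM there and under 2% of it in the other. The fits were tested on simulated data.

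Ccl5, the gene lists and the comparisons were chosen with earlier results of these data known. Named genes were Ccl5, list members, genes within 250 kb, the 10 most alike in each line, and the 10 with the largest smallest fold change among genes called higher in B16F10 with STING agonist than in each other group. Replicate libraries were not duplicates: the chi-square between pairs was 2.99 to 20.4 per degree of freedom. The alternatives left out each library in turn, fitted all libraries together, added the replicate number as a block, changed or dropped the filter, and used DESeq2 1.42.0, its size factors or a newer quasi-likelihood method. Some items are not reported here.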

Additional observations from a re-analysis of the deposited data

How the results depend on the processing

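The B16F10 log2 fold changes of Ccl5 held under all 19 alternatives: 2.61 to 2.69 for STING agonist against vehicle, 2.09 to 2.17 against IFNβ and 1.51 to 1.59 against IFNγ. In 6694c2, none of the 4 comparisons of Ccl5 passed the threshold under any of 19 alternatives, with adjusted p from 0.385 upward, but values near 0 changed sign: STING agonist against vehicle ranged from -0.30 to 0.21. The difference between the lines with vehicle ranged from -4.99 to -4.49 over 13 alternatives. The 114 genes called higher in B16F10 with STING agonist than in each other group ranged from 72 to 137 with 1 library left out. The 72 over 2-fold ranged from 50 to 86 with 1 library left out and were 111 in the fit of all 24 libraries. Genes called higher with STING agonist against vehicle numbered 270 to 483 in B16F10 and 16 to 99 in 6694c2, and genes called lower numbered 105 to 482 and 22 to 60. The replicate block gave 2.64, 2.12 and 1.54 for the 3 B16F10 comparisons of Ccl5 and changed no call of the gene; same-numbered libraries did not deviate together (r from -0.33 to 0.29), so the numbers were not taken as pairs. The newer quasi-likelihood method was chosen after the data were seen. With 3 to 14 reads per 6694c2 library, depth limits what can be said of Ccl5 in that line.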
